A study of Mus musculus with 10 samples.

Results

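The troponins and tropomyosins are the proteins that switch the thin filament of striated muscle on and off. Described here are 10 genes of the 43629 in the count tables: the troponin T genes Tnnt1, Tnnt2 and Tnnt3, the troponin I genes Tnni1 and Tnni2, the troponin C genes Tnnc1 and Tnnc2, and the tropomyosin genes Tpm1, Tpm2 and Tpm3. They were taken as a named set of fast, slow and cardiac thin filament genes, by matching Ensembl gene identifiers to mouse symbols and without a threshold on any measured value, though with earlier results of these data known. All 10 were found, and all 10 passed the filter on low counts in every comparison.

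The study examined IMP2, an mRNA-binding protein encoded by Igf2bp2, in skeletal muscle of the mouse. The 10 libraries were 2 of RNA from an immunoprecipitation (IP) of knockout (KO) muscle, 3 of total RNA from KO muscle, 2 of IP RNA from wild-type (WT) muscle and 3 of total RNA from WT muscle. All mice were male C57BL/6, 6 weeks old, and all had been fed a high-fat diet (HFD) for 2 weeks, WT mice included. The genotype is called IMP2 null in the sample labels and, in the series description, a muscle-specific knockout. The IP used a home-made IMP2 antibody, so the KO IP serves as the control IP by its label; whether IMP2 protein was absent there is not given in the sources used here. The sources used here do not give the muscle sampled, how the knockout was driven or the deleted part of the gene. Nothing in the labels says that libraries of a group came from separate mice, so p-values measure only the spread between these libraries, which may be technical.

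Tropomyosin lies along actin and covers the sites to which myosin binds. Troponin T ties the troponin complex to tropomyosin, troponin I holds the filament in its blocked state, and troponin C binds calcium and releases that block. Fast and slow fibres use different genes for each troponin subunit, and heart muscle shares the slow troponin C with slow fibres but has its own troponin T and troponin I. The fast genes below are Tnnt3, Tnni2, Tnnc2, Tpm1 and Tpm2, although Tpm2 belongs to fast and slow fibres alike. The slow genes are Tnnt1, Tnni1, Tnnc1 and Tpm3.

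The genes form neighbouring pairs of troponin I and troponin T in the genome (GRCm38, GENCODE M21 annotation). Tnni2 (ENSMUSG00000031097, chromosome 7, 142441808 to 142444410, plus strand) and Tnnt3 (ENSMUSG00000061723, chromosome 7, 142498836 to 142516009, plus strand) encode the fast forms, with Lsp1 between them. Tnni1 (ENSMUSG00000026418, chromosome 1, 135779434 to 135810989, plus strand), the slow troponin I, lies beside Tnnt2 (ENSMUSG00000026414, chromosome 1, 135836354 to 135852260, plus strand), the cardiac troponin T. Tnnt1 (ENSMUSG00000064179, chromosome 7, 4504570 to 4516382, minus strand), the slow troponin T, lies beside the cardiac troponin I gene Tnni3. Tnnc1 (ENSMUSG00000091898, chromosome 14, 31208312 to 31211729, plus strand), the slow and cardiac troponin C, and Tnnc2 (ENSMUSG00000017300, chromosome 2, 164777161 to 164779967, minus strand), the fast troponin C, have no troponin neighbour here. Tnnt3 overlaps Prr33, and Tnnc1 overlaps Nisch, each on the opposite strand with exons apart. The tropomyosin genes are Tpm1 (ENSMUSG00000032366, chromosome 9, 67022590 to 67049406, minus strand), Tpm2 (ENSMUSG00000028464, chromosome 4, 43514711 to 43523765, minus strand) and Tpm3 (ENSMUSG00000027940, chromosome 3, 90072649 to 90100902, plus strand).

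As described below, the slow genes varied together across the total RNA libraries and so did the fast genes, apart from each other. Any part of promoter sequence in this was not tested. The 250 bases before the RefSeq start (GRCm38.p6) are shown for the slow troponin genes, then for Tnnc2, Tpm1 and Tpm2 of the fast set. They are written 5′ to 3′ on the strand of the gene, and capitals mark CANNTG, the E-box form bound by MyoD and its relatives, CATTCC, the M-CAT element, and TATAAA, each searched on both strands. The windows are chr7:4515976-4516225 (minus strand) for Tnnt1, chr1:135799171-135799420 (plus strand) for Tnni1, chr14:31208062-31208311 (plus strand) for Tnnc1, chr2:164779735-164779984 (minus strand) for Tnnc2, chr9:67049214-67049463 (minus strand) for Tpm1 and chr4:43523555-43523804 (minus strand) for Tpm2.
Tnnt1: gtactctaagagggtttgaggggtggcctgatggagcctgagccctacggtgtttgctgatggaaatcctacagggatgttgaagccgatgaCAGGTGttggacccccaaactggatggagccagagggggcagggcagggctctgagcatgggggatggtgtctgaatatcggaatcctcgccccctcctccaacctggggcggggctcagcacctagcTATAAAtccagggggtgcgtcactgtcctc
Tnni1: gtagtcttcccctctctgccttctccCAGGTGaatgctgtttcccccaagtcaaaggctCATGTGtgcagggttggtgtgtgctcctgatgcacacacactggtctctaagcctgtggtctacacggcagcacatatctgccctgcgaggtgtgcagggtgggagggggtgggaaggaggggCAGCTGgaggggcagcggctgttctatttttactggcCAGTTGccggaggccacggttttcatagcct
Tnnc1: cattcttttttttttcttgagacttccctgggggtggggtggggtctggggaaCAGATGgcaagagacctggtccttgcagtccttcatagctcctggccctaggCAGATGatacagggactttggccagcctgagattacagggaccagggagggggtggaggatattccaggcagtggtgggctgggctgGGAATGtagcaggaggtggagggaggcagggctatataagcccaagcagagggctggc
Tnnc2: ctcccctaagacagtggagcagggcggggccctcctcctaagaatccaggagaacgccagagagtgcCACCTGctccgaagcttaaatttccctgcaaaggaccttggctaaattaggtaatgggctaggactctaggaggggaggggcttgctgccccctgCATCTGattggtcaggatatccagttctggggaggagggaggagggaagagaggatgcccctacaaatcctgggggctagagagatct
Tpm1: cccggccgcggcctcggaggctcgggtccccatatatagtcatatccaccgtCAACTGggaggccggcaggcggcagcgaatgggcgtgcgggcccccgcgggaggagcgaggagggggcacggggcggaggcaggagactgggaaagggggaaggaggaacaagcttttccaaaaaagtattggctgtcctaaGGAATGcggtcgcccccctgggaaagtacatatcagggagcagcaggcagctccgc
Tpm2: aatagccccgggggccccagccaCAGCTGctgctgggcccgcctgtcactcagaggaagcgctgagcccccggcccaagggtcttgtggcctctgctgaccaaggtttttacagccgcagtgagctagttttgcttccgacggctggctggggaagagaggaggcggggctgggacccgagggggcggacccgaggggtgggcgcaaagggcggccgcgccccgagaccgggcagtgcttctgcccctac
Each of these 6 windows holds at least 1 CANNTG, as do 66% of 27025 promoter windows of the same length. Tnni1 holds 4 such matches, Tnnc1 and Tnnc2 hold 2 each, and Tnnt1, Tpm1 and Tpm2 hold 1 each. CAGCTG, which is 1 form of CANNTG and is found in 12.8% of all windows, occurs in Tnni1 and Tpm2. CATTCC or its complement occurs in Tnnc1 and Tpm1 (12.6% of all windows), and TATAAA occurs in Tnnt1 alone of the 6 (13% of all windows). The MEF2 motif CTAWWWWTAR and the CArG box CCWWWWWWGG (W is A or T, R is A or G) were also searched. Both had 0 matches in each of the 6 windows, and they occur in 1.73% and 1.4% of all windows. Tnni1 has a second RefSeq start whose window, chr1:135799261-135799510, overlaps the first and holds 2 CANNTG, while the other 5 genes shown have 1 window each. A RefSeq window was at hand for 8 of the 10 genes, and for Tnni2 and Tnnt3 there was no entry.

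Gene counts came to 917462 and 4037480 in the KO IP libraries, 9691580 to 10739792 in KO total libraries, 2159115 and 2547124 in WT IP and 12299030 to 14809788 in WT total libraries. The limit set by a count of 0, taken as 3 counts, was 0.743 to 3.27 CPM (counts scaled by library size) in an IP library and 0.203 to 0.310 CPM in a total RNA library, for counting error only. Igf2bp2 had 9 and 25 counts in KO IP, 21, 19 and 21 in KO total libraries, 28 and 4 in WT IP and 35, 37 and 48 in WT total libraries. Scaled with trimmed mean of M-values (TMM) factors, that was 8.64 and 5.18 CPM in KO IP and 2.52, 1.88 and 2.46 CPM in KO total libraries. In WT it was 11.8 and 1.56 CPM in the IP and 2.50, 2.85 and 3.34 CPM in total libraries. With TMM factors the genotypes overlapped in both kinds of library. As a share of gene counts they overlapped in the IP but not in total RNA. There Igf2bp2 was 0.000217%, 0.000178% and 0.000196% in KO and 0.000236%, 0.000266% and 0.000390% in WT. Whether the level of Igf2bp2 separated the genotypes in total RNA thus depended on the scaling, and KO and WT below are the names the labels give. The 14 fast fibre genes, which mark the labelled tissue, were all counted in every library and summed to 203166 to 256621 CPM in KO total libraries and 108170 to 188669 CPM in WT total libraries. Endocrine pancreas markers summed to 376 and 151 CPM in KO IP, 2424, 3.85 and 7.04 CPM in KO total libraries, 47.1 and 354 CPM in WT IP, and 2.00 to 2.78 CPM in WT total libraries, so KO total library 1 and all 4 IP libraries stood above the other 5 libraries. Adipocyte markers summed to 724 to 1054 CPM in KO IP, 699 to 865 CPM in KO total libraries, 772 to 1261 CPM in WT IP and 811 to 1930 CPM in WT total libraries, with WT total library 2 the highest. Levels of genes and lists here and below are CPM scaled with TMM factors over all 10 libraries.

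The fast genes, with Tpm2 counted among them, made up nearly all troponin and tropomyosin RNA. Together the 10 genes held 5.05% and 4.32% of gene counts in KO IP, 6.67%, 6.49% and 9.10% in KO total libraries, 5.08% and 5.40% in WT IP, and 6.28%, 5.92% and 5.33% in WT total libraries. KO total library 3 had the largest share and the KO IP library 2 the smallest. Per kilobase of exon, in CPM per kilobase, Tnnt3 was the highest of the 10 in every group, at 6768 ± 1459 in KO IP, 17130.3 ± 3941 in KO total libraries, 8114 ± 1018 in WT IP and 10951 ± 2067 in WT total libraries (SD, n = 2, 3, 2 and 3). In total RNA of both genotypes Tnni2, Tpm1, Tpm2 and Tnnc2 came next in that order, and the ranges over libraries of Tnni2 and Tpm1, and of Tpm1 and Tpm2, overlapped. In the IP of both genotypes Tpm2 stood above Tpm1, without overlap. Tnnc2 had 1328 ± 390 CPM per kilobase in KO total libraries and 931 ± 407 in WT total libraries (SD, n = 3 each), while no slow gene averaged over 13.5 in KO total libraries or 11.2 in WT total libraries. Tnnc1, Tnnt1, Tpm3 and Tnni1 followed in that order in total RNA with overlapping ranges, and Tnnt2 was the lowest in every group, at 1.06 ± 0.393 CPM per kilobase in KO total libraries and 0.592 ± 0.338 in WT total libraries (SD, n = 3 each).

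**Figure D1:**
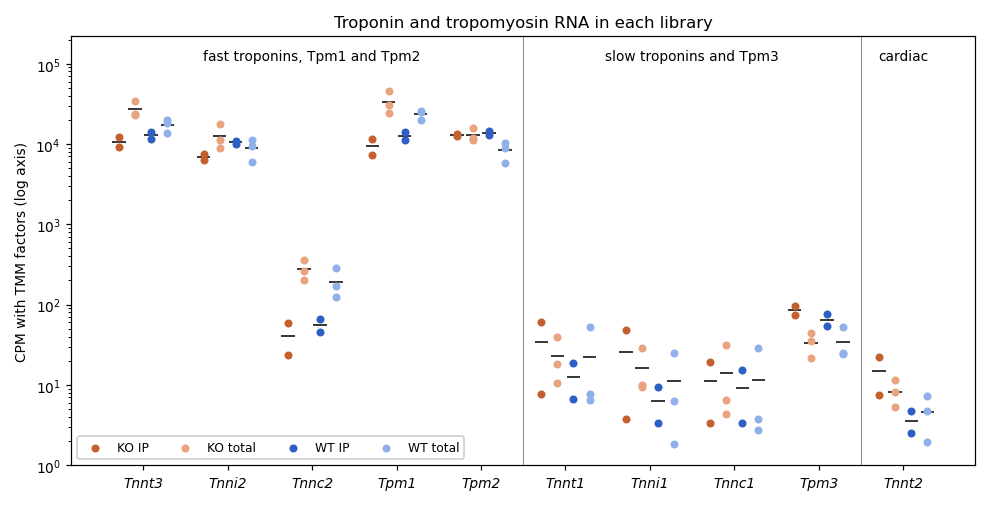
Level of each gene in each library, in CPM with TMM factors on a log axis; each point is 1 library, and the short line is the mean of the group (2 KO IP, 3 KO total, 2 WT IP and 3 WT total libraries, left to right). Tnnt3, Tnni2, Tpm1 and Tpm2 lie between 5857 and 46106 CPM, Tnnc2 between 23.8 and 364 CPM, and the slow genes and Tnnt2 between 1.86 and 96.6 CPM.

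Troponin T RNA was almost entirely that of Tnnt3, the fast form. Tnnt3 had 12346 and 9080 CPM in KO IP, 23958, 23090.0 and 34304 CPM in KO total libraries, 11705 and 13984 CPM in WT IP, and 19891, 18468 and 13647 CPM in WT total libraries. All 3 KO total libraries lay above all 3 WT total libraries, KO total library 3 was the highest and WT total library 3 the lowest, while the IP groups overlapped. Tnnt1, the slow form, had 60.5 and 7.67 CPM in KO IP, 10.4, 18.1 and 39.7 CPM in KO total libraries, 6.72 and 18.7 CPM in WT IP, and 7.73, 6.40 and 53.0 CPM in WT total libraries. It was high in library 3 of both total RNA groups and in KO IP library 1, and every pair of groups overlapped. In bulk muscle, fewer cells of a fibre type and less RNA per cell cannot be told apart. Tnnt1 was 0.487% and 0.0843% of troponin T counts in KO IP, 0.0435%, 0.0782% and 0.115% in KO total libraries, 0.0574% and 0.133% in WT IP, and 0.0388%, 0.0346% and 0.386% in WT total libraries. Tnnt2, the cardiac form that is also made in immature skeletal muscle, had 22.1 and 7.46 CPM in KO IP, 8.04, 11.4 and 5.28 CPM in KO total libraries, 2.52 and 4.67 CPM in WT IP, and 1.93, 7.17 and 4.67 CPM in WT total libraries. Both KO IP libraries were above both WT IP libraries, on 23 and 36 counts in KO IP and 6 and 12 counts in WT IP, whereas the total RNA groups overlapped. Of 14 other heart markers, 3 to 10 were at 0 counts in any given library, they summed to 36.3 to 83.5 CPM in KO IP, 116 to 162 CPM in KO total libraries, 84.9 to 103 CPM in WT IP and 64.0 to 136 CPM in WT total libraries, and the atrial hormone gene Nppa had 1 count in WT total library 3 and 0 in the other 9 libraries.

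Troponin I RNA was likewise that of the fast gene. Tnni2, the fast form, had 7514 and 6352 CPM in KO IP, 11111, 9025 and 17937 CPM in KO total libraries, 10067 and 10829.6 CPM in WT IP, and 11235, 9578 and 5947 CPM in WT total libraries. Both KO IP libraries were below both WT IP libraries, and the total RNA groups overlapped, with KO total library 3 the highest and WT total library 3 the lowest of the 6. Tnni1, the slow form, had 48.0 and 3.73 CPM in KO IP, 9.48, 9.98 and 28.6 CPM in KO total libraries, 3.36 and 9.34 CPM in WT IP, and 1.86, 6.32 and 25.0 CPM in WT total libraries. The groups overlapped, and the high libraries were the same 3 as for Tnnt1. In the IP these values rest on 50 and 18 counts in KO and 8 and 24 counts in WT. Tnni1 was at most 0.635% of troponin I counts, in KO IP library 1.

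Of the troponin subunits, troponin C had the largest share of slow counts. Tnnc2, the fast form, had 58.5 and 23.8 CPM in KO IP, 261, 204 and 364 CPM in KO total libraries, 45.4 and 65.8 CPM in WT IP, and 288, 170 and 124 CPM in WT total libraries. Every IP library lay below every total RNA library, and the genotypes overlapped in both kinds of library. Of the 800 exon bases of Tnnc2, 592 (74%) are shared with Ube2c, a ubiquitin-conjugating enzyme gene on the opposite strand, in the GENCODE M21 annotation. How reads in the shared part were assigned depends on a strand setting that the sources used here do not give. The level of Tnnc2 against the other subunits, and in the IP against total RNA, is uncertain. Its levels per kilobase above use the 208 unshared bases. Ube2c itself had 10.6 and 10.6 CPM in KO IP, 5.16, 6.03 and 7.74 CPM in KO total libraries, 10.1 and 0.779 CPM in WT IP, and 4.22, 6.01 and 7.66 CPM in WT total libraries. Tnnc1, the slow and cardiac form, had 19.2 and 3.32 CPM in KO IP, 4.32, 6.42 and 31.4 CPM in KO total libraries, 3.36 and 15.2 CPM in WT IP, and 2.72, 3.78 and 28.5 CPM in WT total libraries. Library 3 of each genotype was again the highest in total RNA. Tnnc1 made up 24.7% and 12.2% of troponin C counts in KO IP, 1.63%, 3.05% and 7.95% in KO total libraries, 6.90% and 18.8% in WT IP, and 0.936%, 2.18% and 18.7% in WT total libraries, with the same reservation about Tnnc2.

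Among the tropomyosins, Tpm1 led in total RNA and Tpm2 in the IP. Counts are per gene and do not separate the forms that a gene makes, for Tpm1 and Tpm2 as for Tpm3. The part of forms from cells other than muscle fibres was not tested. Tpm1, the alpha-tropomyosin of fast fibres, had 11625 and 7197 CPM in KO IP, 30824, 24155 and 46106 CPM in KO total libraries, 11099 and 13985 CPM in WT IP, and 26095, 25036 and 19893 CPM in WT total libraries. Every IP library lay below every total RNA library, and the genotypes overlapped. Tpm2, the beta-tropomyosin of fast and slow fibres, had 12743 and 13393 CPM in KO IP, 11336, 11958 and 15774 CPM in KO total libraries, 13062 and 14568 CPM in WT IP, and 9017, 10283 and 5857 CPM in WT total libraries. The 3 KO total libraries lay above the 3 WT total libraries, and both WT IP libraries lay above all WT total libraries. Tpm3, the alpha-tropomyosin of slow fibres, whose gene also makes cytoplasmic forms that the counts do not separate, had 74.9 and 96.6 CPM in KO IP, 21.4, 35.4 and 43.9 CPM in KO total libraries, 76.0 and 53.3 CPM in WT IP, and 24.0, 25.3 and 52.1 CPM in WT total libraries. With TMM factors every IP library lay above every total RNA library, though WT IP library 2 was close to WT total library 3. As a share of gene counts, Tpm3 was 0.00538% in WT IP library 2 and 0.00608% in WT total library 3, so that separation depended on the scaling. Of 6271 windows of 50 bases in Tpm3 transcripts, 23.2% also occur in 5 other genes, among them Tpm3-rs7, which had at most 5 counts in a library. The sources used here do not give how reads that match both were treated, and the level of Tpm3 is uncertain.

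Tpm2 made up 52.1% and 64.7% of the tropomyosin counts in KO IP, 26.9%, 33.1% and 25.5% in KO total libraries, 53.9% and 50.9% in WT IP, and 25.7%, 29.1% and 22.7% in WT total libraries. The share of Tpm1 was 41.2% ± 9.03 in KO IP (SD, n = 2) and 71.5% ± 4.07 in KO total libraries (SD, n = 3), and 47.3% ± 2.19 in WT IP (SD, n = 2) and 74.1% ± 3.14 in WT total libraries (SD, n = 3). For Tpm1 and Tpm2 the shares of IP and total RNA did not overlap in either genotype. For Tpm3 they overlapped in WT, at 0.186% in WT IP library 2 and 0.202% in WT total library 3. The shares of KO and WT overlapped in total RNA and in the IP. Tpm3 was at most 0.467% of tropomyosin counts, in KO IP library 2. A share within a library does not depend on the scaling between libraries.

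**Figure D2:**
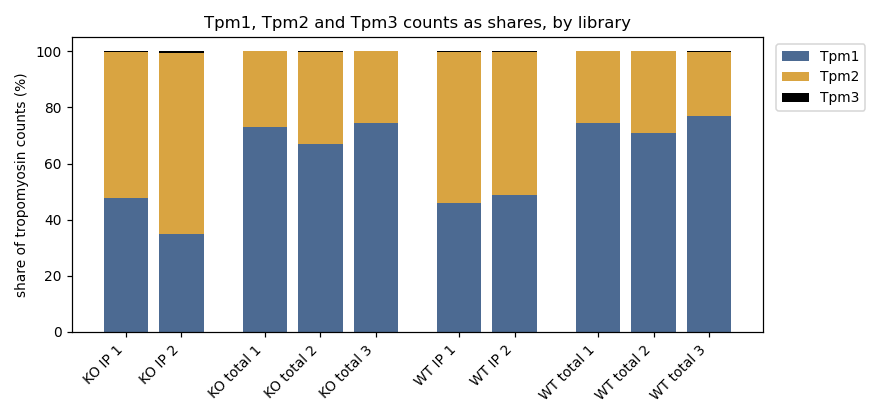
Share of the summed counts of Tpm1, Tpm2 and Tpm3 held by each gene, in percent, with 1 bar per library; KO IP, KO total, WT IP and WT total libraries run from left to right. Tpm2 holds 50.9% to 64.7% in the 4 IP libraries and 22.7% to 33.1% in the 6 total RNA libraries.

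Comparing KO with WT in total RNA asks how the IMP2 genotype bears on thin filament RNA. The fast genes stood higher in KO: Tnnt3 averaged 27117 ± 6239 CPM in KO and 17335 ± 3272 CPM in WT, Tpm2 averaged 13023 ± 2403 CPM in KO and 8386 ± 2280 CPM in WT, and Tpm1 averaged 33695 ± 11254 CPM in KO and 23675 ± 3318 CPM in WT (SD, n = 3 each). None of these differences passed the test, nor did that of any of the 10 genes. With edgeR's quasi-likelihood test and Benjamini-Hochberg adjustment, 0 of 10 passed, as did 0 of 13169 genes tested (0%); DESeq2 called 5 genes and limma-voom 0 among all genes, and neither called any of the 10. At an unadjusted p under 0.05 there were 2 of the 10, Tnnt3 and Tpm2, and 4.32% of all genes. The same 2 of 10 were the ones whose groups did not overlap, both higher in KO, against 9.63% of all genes tested (5.06% higher and 4.56% lower).

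The log2 difference of KO minus WT in total RNA was 0.64 ± 0.27 (SE) for Tnnt3 (unadjusted p = 0.0426) and 0.63 ± 0.27 for Tpm2 (unadjusted p = 0.0461), both with adjusted p = 0.897 by edgeR's quasi-likelihood test. It was 0.51 ± 0.33 for Tnni2, 0.51 ± 0.32 for Tnnc2 and 0.51 ± 0.30 for Tpm1. The 5 fast genes, with Tpm2 of fast and slow fibres among them, thus differed by similar amounts. The list of 14 fast fibre genes, which holds none of the 10, had a similar median of 0.49. Of these 14 genes 13 were positive, and 1, the fast myosin heavy chain gene Myh2, stood at -0.74 ± 0.19. Tnnt2 stood at 0.84 ± 0.44, and the slow genes Tnni1 at 0.52 ± 0.77, Tnnc1 at 0.25 ± 0.93, Tnnt1 at 0.01 ± 0.77 and Tpm3 at -0.02 ± 0.35. The SE of the 3 slow troponin genes was larger than their differences. Across the 10 genes the median was 0.51, against -0.01 over all genes tested, and 9 were positive. With library size alone in place of TMM factors the median of all genes moved to -0.23, and Tnnt3 and Tpm2 each stood at 0.43. Leaving out KO total library 3 and WT total library 3, an alternative chosen after seeing the values, brought Tnnt3 to 0.30, Tpm2 to 0.27, Tpm1 to 0.10, Tnnc2 to 0.02 and Tnni2 to -0.05. Leaving out KO total library 1 and WT total library 2, which hold pancreas and adipocyte transcripts, gave 0.78 for Tnnt3 and 0.90 for Tpm2.

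**Figure D3:**
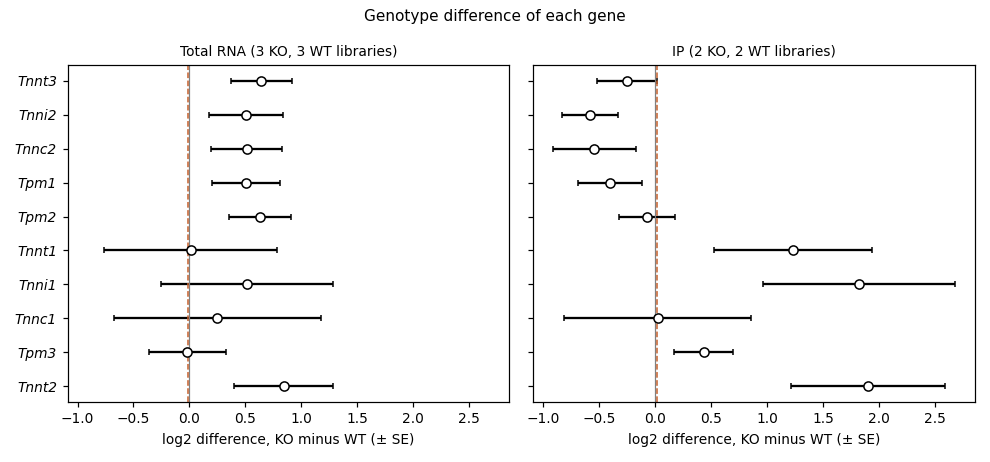
Log2 difference of KO minus WT for each gene, in total RNA (left) and in the IP (right), with the SE as bars; open points missed edgeR's quasi-likelihood test at an adjusted p of 0.05, and the dashed line is the median of all genes tested. The 5 fast genes lie between 0.51 and 0.64 in total RNA and between -0.58 and -0.07 in the IP, and all points are open.

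The slow genes split the libraries in another way than the genotype did. Tnnt1, Tnni1, Tnnc1 and Tpm3 were highest in library 3 of the KO total group and in library 3 of the WT total group. Myh7, the slow myosin heavy chain, had 12.5, 12.6 and 86.2 CPM in KO total libraries and 5.36, 8.48 and 112 CPM in WT total libraries, and Myl2, the slow myosin light chain, had 6.84, 19.7 and 48.0 CPM in KO total libraries and 4.29, 12.0 and 73.2 CPM in WT total libraries. Both were high in the same 2 libraries. The full list of 13 slow fibre genes did not share that pattern in KO, where it summed to 3958, 4666 and 4070 CPM in KO total libraries and to 3560, 4705 and 5402 CPM in WT total libraries. Across the 6 total RNA libraries, Pearson's r of log2 CPM ran from 0.78 to 0.96 over the 6 pairs among the 4 slow genes and from 0.78 to 0.96 over the 10 pairs among the 5 fast genes. Over the 20 pairs of a fast with a slow gene it ran from -0.30 to 0.28. These values describe 6 libraries that share their depth and composition, and nothing in the labels links a library to the library of the same number in the other group. Leaving out KO total library 3 gave log2 differences of -0.64 for Tnnt1 and -1.11 for Tnnc1, and leaving out WT total library 3 gave 1.69 for Tnnt1 and 2.12 for Tnnc1.

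**Figure D4:**
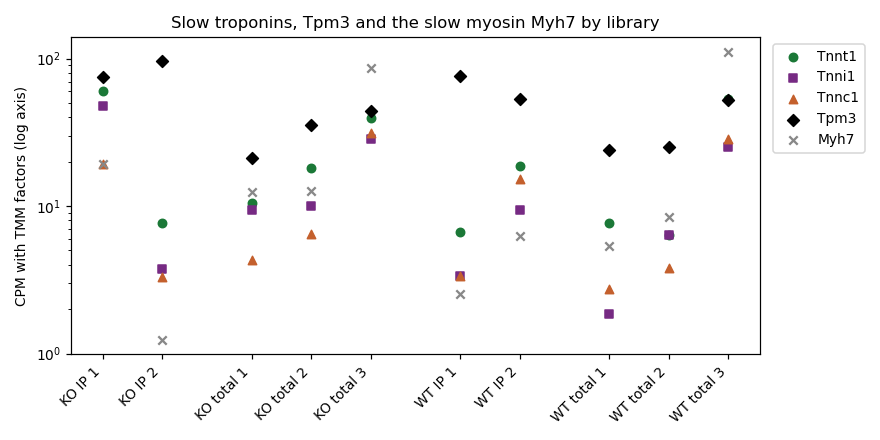
Level of the slow troponin genes, Tpm3 and the slow myosin gene Myh7 in each library, in CPM with TMM factors on a log axis, with KO IP, KO total, WT IP and WT total libraries from left to right. In total RNA, library 3 of each genotype is the highest for all 5 genes, with Myh7 at 86.2 CPM in KO and 112 CPM in WT, and in the IP the slow troponin genes are highest in KO IP library 1.

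By the same measure, among 7787 genes with a mean of at least 10 CPM, each of the 10 was set against the others over the 6 total RNA libraries, as a description. Capzb, which caps the barbed end of actin, was the closest to Tnnt3 (r = 0.993), and Casq1, the fast calsequestrin that stores calcium in the sarcoplasmic reticulum, was the closest to Tpm2 (r = 0.996). Myh7 was the third closest to Tnnc1 (r = 0.989), after Ctu2 (0.992) and Emid1 (0.990). Drap1 was the closest to Tnni2 (0.999), Tmem185a to Tnnc2 (0.995), Elp5 to Tpm1 (0.990), Slc39a13 to Tnnt1 (0.992), Prepl to Tnni1 (0.976) and Zdhhc1 to Tpm3 (0.982). Each is among the 3 highest of 7787 values over 6 libraries, where an r this high can occur by chance. Shared regulation was not tested, for Capzb, Casq1 and Myh7 as for the others.

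Comparing KO with WT in the IP asks whether the antibody recovers different RNA from the genotypes. The fast genes were at or below the WT level there: Tnni2 averaged 6933 ± 822 CPM in KO IP and 10448 ± 539 CPM in WT IP, and Tpm1 averaged 9411 ± 3131 CPM in KO IP and 12542 ± 2040 CPM in WT IP (SD, n = 2 each). Tnnt2 averaged 14.8 ± 10.3 CPM in KO IP and 3.60 ± 1.52 CPM in WT IP (SD, n = 2 each). With edgeR's quasi-likelihood test and Benjamini-Hochberg adjustment, 0 of the 10 passed, as did 0 of 10730 genes (0%); DESeq2 called 57 genes and limma-voom 3 among all genes, none of them among the 10, of which DESeq2 gave an adjusted p for only 4 (Tnnt3, Tnni2, Tpm1 and Tpm2). At an unadjusted p under 0.05 there were 3 of the 10, Tnnt2, Tnni2 and Tnni1, against 10.5% of all genes. The groups did not overlap for Tnnt2, which was higher in KO IP, and for Tnni2, which was lower, and this was so for 41.1% of all genes (20.5% higher and 20.6% lower).

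The log2 difference of KO minus WT in the IP was -0.58 ± 0.25 (SE) for Tnni2, -0.54 ± 0.37 for Tnnc2, -0.40 ± 0.28 for Tpm1, -0.25 ± 0.27 for Tnnt3 and -0.07 ± 0.25 for Tpm2. It was 1.90 ± 0.69 for Tnnt2, 1.82 ± 0.86 for Tnni1, 1.23 ± 0.71 for Tnnt1, 0.43 ± 0.26 for Tpm3 and 0.02 ± 0.84 for Tnnc1. The positive differences of Tnni1 and Tnnt1 rested on KO IP library 1, the shallowest of all, and without it they were -0.77 for Tnni1 and -0.73 for Tnnt1. Without KO IP library 2, edgeR's quasi-likelihood test gave an adjusted p of 0.00716 for Tnni1 (2.91) and 0.0238 for Tnnt1 (2.25), and without WT IP library 2 it gave 0.0234 for Tnni1 (2.71) and 0.0245 for Tnnt1 (2.14), where the lone library is assumed to vary like those of the other group. The 6 fibroblast markers summed to 10137 to 11473 CPM in KO IP and 4716 to 6227 CPM in WT IP, and the 5 erythroid markers to 483 to 777 CPM in KO IP and 155 to 310 CPM in WT IP. The 10 smooth muscle and pericyte markers ran the other way, at 5238 to 5526 CPM in KO IP and 8794 to 9440 CPM in WT IP, and did not overlap either. The part of these cells in the differences of the 10 genes was not tested.

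Comparing IP with total RNA in each genotype asks which RNA is recovered in excess of its level in the tissue. Tnnc2, the fast troponin C, fell in the IP of both genotypes and Tpm3 rose in both. Ambiguous reads were 5.48% to 6.03% of all reads in IP libraries and 3.30% to 3.95% in total RNA libraries. Whether this bears on Tnnc2, which shares exon bases with Ube2c, was not tested. Tnnc2 averaged 41.2 ± 24.5 CPM in KO IP (SD, n = 2) and 276 ± 81.2 CPM in KO total libraries (SD, n = 3), a log2 difference of -2.85 ± 0.45 (SE). In WT it averaged 55.6 ± 14.4 CPM in the IP (SD, n = 2) and 194 ± 84.6 CPM in total RNA (SD, n = 3), a log2 difference of -1.80 ± 0.41 (SE). Tpm3 averaged 85.7 ± 15.3 CPM in KO IP and 33.5 ± 11.4 CPM in KO total libraries, a log2 difference of 1.37 ± 0.35, and 64.7 ± 16.1 CPM in WT IP and 33.8 ± 15.9 CPM in WT total libraries, a log2 difference of 0.93 ± 0.35. In KO muscle Tpm1 (-1.84 ± 0.36) and Tnnt3 (-1.34 ± 0.31) fell as well. Tpm1 and Tnnt3 did not pass in WT, and the difference between the genotypes is tested separately as an interaction.

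With edgeR's quasi-likelihood test and Benjamini-Hochberg adjustment, 4 of the 10 passed in KO, 1 higher and 3 lower, against 36.5% of 14399 genes (17.7% higher and 18.8% lower). The adjusted p was 0.000285 for Tnnc2, 0.00137 for Tpm1, 0.00466 for Tnnt3 and 0.00734 for Tpm3. In WT 2 of the 10 passed, 1 higher and 1 lower, against 37% of 14399 genes (17.6% higher and 19.4% lower), with an adjusted p of 0.00376 for Tnnc2 and 0.0480 for Tpm3 by the same edgeR quasi-likelihood test. In both genotypes the share of the 10 that passed was near or under that of all genes. In KO the groups did not overlap for 5 of the 10, 1 higher and 4 lower, against 61.3% of all genes (29.9% higher and 31.3% lower), and in WT for 4 of the 10, 2 in each direction, against 59.9% (27.4% higher and 32.4% lower). At an unadjusted p under 0.05 there were 5 of the 10 in KO, against 46.3% of all genes, and 4 in WT, against 46.6%. Without KO IP library 2, Tnnt3 (adjusted p = 0.0736) and Tpm3 (0.136) no longer passed in KO by edgeR's quasi-likelihood test, 2 of the 10 were called, and Tnnc2 stood at -2.25, while without KO IP library 1 it stood at -3.54. Without WT IP library 1 none of the 10 passed in WT, where Tnnc2 had an adjusted p of 0.0539 and Tpm3 of 0.307 by edgeR's quasi-likelihood test. The call of Tpm3 in WT was also lost without KO IP library 1, KO IP library 2, KO total library 2, WT IP library 2, WT total library 1 or WT total library 2 (edgeR adjusted p = 0.0541 to 0.124), and with library size alone (0.0819).

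Tpm1 and Tpm2 lay close to the threshold in WT. The log2 difference of IP minus total RNA was -0.92 ± 0.34 (SE) for Tpm1 (adjusted p = 0.0501) and 0.72 ± 0.29 for Tpm2 (adjusted p = 0.0635) in WT by edgeR's quasi-likelihood test, while DESeq2 and limma-voom called both. In KO, Tpm2 stood at 0.01 ± 0.29 and Tnni2 at -0.87 ± 0.34 (adjusted p = 0.0612). Tnni2 stood at 0.23 ± 0.33 in WT and Tnnt3 at -0.43 ± 0.30 in WT. The slow troponin genes had wide errors in both genotypes: Tnnt1 stood at 0.33 ± 0.96 in KO and -0.81 ± 0.98 in WT, Tnni1 at 0.37 ± 1.02 in KO and -0.79 ± 1.10 in WT, and Tnnc1 at -0.75 ± 1.21 in KO and -0.32 ± 1.10 in WT. Tnnt2 stood at 0.63 ± 0.57 in KO and -0.34 ± 0.66 in WT. The median of the 10 was -0.37 in KO and -0.38 in WT, against 0.03 and -0.05 over all genes. Scaling by library size alone put the median of all genes at 0.47 in KO and 0.01 in WT, and the calls of all genes in KO to 4267 higher and 1439 lower, against 2551 higher and 2700 lower with TMM. Under that scaling 4 of the 10 were called in KO, and Tpm2 stood at 0.45.

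**Figure D5:**
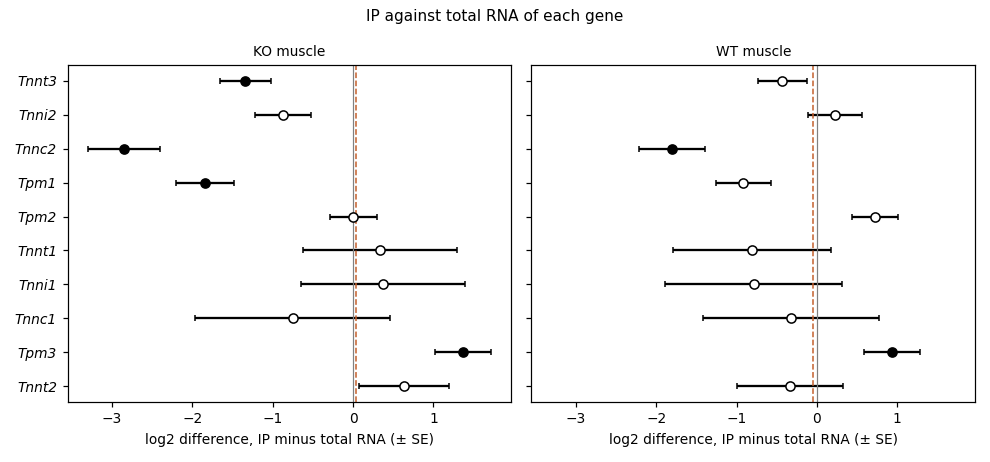
Log2 difference of IP minus total RNA for each gene, in KO muscle (left) and WT muscle (right), with the SE as bars; filled points passed edgeR's quasi-likelihood test at an adjusted p of 0.05, and the dashed line is the median of all genes tested. Tnnc2 is filled at -2.85 in KO and -1.80 in WT, and Tpm3 is filled at 1.37 in KO and 0.93 in WT.

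The difference between the genotypes in IP against total RNA was tested as an interaction. The log2 value was negative for the 5 fast genes, at -1.10 ± 0.48 (SE) for Tnni2, -1.05 ± 0.57 for Tnnc2, -0.92 ± 0.48 for Tpm1, -0.91 ± 0.43 for Tnnt3 and -0.71 ± 0.41 for Tpm2. It was 1.16 ± 1.5 for Tnni1, 1.14 ± 1.37 for Tnnt1, 0.97 ± 0.87 for Tnnt2, 0.44 ± 0.50 for Tpm3 and -0.43 ± 1.63 for Tnnc1. With edgeR's quasi-likelihood test and Benjamini-Hochberg adjustment, 0 of the 10 passed, and 1 of 14399 genes did (0.00694%); DESeq2 called 17 genes and limma-voom 0 among all genes, none of them among the 10. At an unadjusted p under 0.05 there was 1 of the 10, Tnni2 (adjusted p = 0.394 by edgeR), against 11.8% of all genes. Scaled by library size alone, all genes had a median of 0.40 in this test and the fast genes ran from -0.74 for Tnni2 to -0.36 for Tpm2. A difference between KO and WT in what the IP recovered of these genes was therefore not shown at this depth and number of libraries.

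Most partners of troponin and tropomyosin on the thin filament that passed the test in IP against total RNA fell. Of 24 such genes, with 23 tested, 1 rose and 14 fell in KO IP against KO total libraries, and 3 rose and 10 fell in WT IP against WT total libraries, with edgeR's quasi-likelihood test and Benjamini-Hochberg adjustment. Of all genes, 17.7% rose and 18.8% fell in KO, and 17.6% rose and 19.4% fell in WT. Their median log2 difference was -1.11 in KO and -0.23 in WT, against 0.03 and -0.05 over all genes. Tmod1, which caps the pointed end of actin, differed by -4.36 ± 0.32 (SE) in KO and -3.63 ± 0.30 in WT, Nrap, an actin-anchoring protein of nebulin's family, by -2.49 ± 0.30 in KO and -2.49 ± 0.30 in WT, and Lmod2, a leiomodin that nucleates actin, by -2.38 ± 0.29 in KO and -1.94 ± 0.27 in WT. All 3 passed in both genotypes. In KO against WT, 0 of the 22 tested in total RNA and 0 of the 23 tested in the IP passed edgeR's test.

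The counts of the other lists are to be read against the same shares of all genes, 36.5% called in KO and 37% in WT. Of 14 fast fibre genes, 0 rose and 8 fell in KO IP against KO total libraries, and 2 rose and 6 fell in WT IP against WT total libraries. Myh1 and Myh2, fast myosin heavy chains, differed by -3.20 ± 0.44 and -2.54 ± 0.41 (SE) in KO and by -3.16 ± 0.44 and -3.42 ± 0.43 in WT. Of 13 slow fibre genes, 1 rose and 1 fell in KO, and 3 rose and 1 fell in WT, where Mybpc1, the slow myosin-binding protein C, was the gene that fell in both (-2.00 ± 0.28 in KO and -2.36 ± 0.28 in WT) and Myl6b, a slow myosin light chain, rose in both (1.12 ± 0.33 in KO and 1.71 ± 0.32 in WT). Of 17 regulators of fibre type and thin filament genes, 0 rose and 7 fell in KO, and 1 rose and 8 fell in WT. Sox6, a repressor of slow fibre genes, differed by -3.15 ± 0.34 in KO and -2.90 ± 0.32 in WT, and Mef2d, a muscle transcription factor, by -1.53 ± 0.20 in KO and -1.42 ± 0.20 in WT. Of 10 smooth muscle and pericyte markers, 3 rose and 2 fell in KO, and 5 rose and 1 fell in WT, with Tagln, a smooth muscle actin-binding protein, at 1.13 ± 0.27 in KO and 2.27 ± 0.27 in WT. Of 6 fibroblast markers 4 rose and 0 fell in each genotype, and of 5 erythroid markers 4 rose and 1 fell in KO and 1 rose and 0 fell in WT. Of the remaining lists, 1 heart marker rose and 1 fell in KO and 2 rose in WT, 2 developmental muscle genes fell in KO while 2 rose and 1 fell in WT, 3 adipocyte markers rose and 1 fell in KO while 1 fell in WT, and 2 endothelial markers rose in KO while 1 rose and 1 fell in WT. Of 8 endocrine pancreas markers 3 rose in WT and none in KO, where KO total library 1 held 2424 CPM of them, and their sums in the IP overlapped between the genotypes. In KO against WT, in total RNA as in the IP, 0 genes of the 13 lists passed edgeR's quasi-likelihood test, as was so for all genes.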

How the data were processed

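Gene counts of 10 libraries of mouse skeletal muscle were used as deposited by the authors, 1 whole-number count per Ensembl gene and library. STAR, HTSeq and mm10/GRCm38 are named per the submitters' processing notes, while versions, annotation release, strand setting and filters are not given in the sources used here. All 37 mitochondrially encoded genes had 0 counts. Lines for reads given to no gene were left out (no feature 8.54% to 11.2%, ambiguous 3.30% to 6.03% and several places 26.1% to 43.3% of all reads). Replicates of a group differed by more than sampling noise (chi-square per gene 6.37 to 76.6). WT total library 3 stood apart, at 71.3 and 76.6 against WT total libraries 1 and 2, which gave 23.8 between them. Reads in several places were 26.1% in WT total library 3 and 36.5% and 36.9% in WT total libraries 1 and 2. KO total library 3 gave 35.0 and 33.7 against KO total libraries 1 and 2, which gave 14.4 between them.

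After filterByExpr and TMM scaling, edgeR 4.0.16 (R 4.3.3) ran its quasi-likelihood F test, two-sided, group as the only term, with p-values Benjamini-Hochberg adjusted over all genes at 0.05: KO against WT in 6 total RNA or 4 IP libraries, and IP against total RNA and its interaction with genotype in 1 fit of 10. The SE was derived from F. DESeq2 1.42.0, limma-voom 3.58.1, other scalings, no filter, a replicate block and left-out libraries were alternatives, and the fit was checked on simulated data. Likeness used log2 CPM with a prior count of 2. Exon lengths came from GENCODE M21 (GRCm38), less bases shared with another gene. The 10 genes and 13 lists of 142 genes were chosen with earlier results of these data known. All 10 genes are named in every comparison, with the closest gene or genes by likeness (that of Tnnt2 is not reported here), and from described lists some of the up to 4 genes with the smallest p. Replicate numbers were not taken to pair libraries, since no label says what they share.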

Additional observations from a re-analysis of the deposited data

How the results depend on the processing

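Of 734 member results under the alternatives, 634 kept their direction and side of the threshold, 23 newly passed, 11 no longer passed and 66 changed sign; the causes were not tested. No alternative called any of the 10 genes in total RNA, in the interaction, or, with all libraries, in KO against WT IP, where DESeq2 gave no adjusted p for 6 of the 10 (left out of these counts). In KO against WT IP, leaving out each library in turn gave 0 to 2 called. In IP against total RNA, leaving out libraries gave 2 to 5 called in KO and 0 to 3 in WT, where 5 were called with no filter, 4 by DESeq2 and 4 by limma-voom. Over all genes, KO against WT gave 64 calls in total RNA with no filter and 5 by DESeq2, and in the IP 103 with no filter, 57 by DESeq2, 3 by limma-voom, 1 with library size alone, 1 in the fit of all 10 libraries and 13 to 146 with a library left out. The interaction gave 263 with no filter, 17 by DESeq2 and 0 by limma-voom or library size alone, and KO IP against total RNA gave 2148 without KO IP library 2.

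The log2 values that changed sign were these. KO against WT in total RNA, with a library left out, ran from -0.64 to 1.69 for Tnnt1, -0.19 to 1.98 for Tnni1, -1.11 to 2.12 for Tnnc1 and -0.25 to 0.45 for Tpm3. With library size alone it was -0.37 for Tnnt1 and -0.17 for Tnnc1, by limma-voom 0.018 for Tpm3, without KO total 1 and WT total 2 it was -0.085 for Tnnt1 and 0.053 for Tpm3, and without KO total 3 and WT total 3 it was -0.047 for Tnni2 and 0.21 for Tpm3. KO against WT in the IP, with a library left out, ran from -0.73 to 2.25 for Tnnt1, -0.77 to 2.91 for Tnni1, -1.48 to 1.48 for Tnnc1, -1.22 to 0.093 for Tnnc2 and -0.14 to 0.0019 for Tpm2. Tnnc1 was -0.76 by limma-voom and -0.17 in the fit of all 10 libraries, and Tpm2 was 0.069 with library size alone. IP against total RNA in KO ran from -1.57 to 1.40 for Tnnt1, -0.15 to 1.40 for Tnnt2, -2.10 to 1.57 for Tnni1, -2.08 to 0.66 for Tnnc1 and -0.12 to 0.17 for Tpm2 with a library left out. By limma-voom it was -0.62 for Tnnt1 and -0.99 for Tnni1, and Tpm2 was -0.036 with RLE size factors, -0.036 by DESeq2 and -0.030 with no filter. In WT it ran from -1.81 to 0.86 for Tnnt1, -0.94 to 0.14 for Tnnt2, -1.80 to 0.66 for Tnni1 and -1.87 to 1.53 for Tnnc1, which was 0.15 by limma-voom. The interaction ran from -0.75 to 2.22 for Tnnt1, -1.30 to 2.37 for Tnni1, -2.30 to 0.98 for Tnnc1 and -0.013 to 0.72 for Tpm3; by limma-voom it was -0.35 for Tnnt1 and -0.80 for Tnni1, and with library size alone 0.23 for Tnnc1.

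Same-numbered libraries did not deviate together between KO and WT (r = 0.14, -0.14 and -0.35 in total RNA and -0.07 in the IP). Between IP and total RNA the 2 pairs in KO (0.15 and 0.19) and the 2 in WT (0.18 and 0.13) were all positive, but nothing says what a number shares. With the replicate block 0 of the 10 genes were called in total RNA, the IP and the interaction, 4 in KO IP against total RNA and 2 in WT, and over all genes 28 in KO against WT IP. Under the replicate block the values that changed sign were 0.015 for Tpm3 in total RNA, -0.064 for Tnnc1 in KO against WT IP, 0.76 for Tnnc1 and -0.036 for Tpm2 in IP against total RNA in KO, and 0.60 for Tnnt1, 0.43 for Tnni1 and 1.37 for Tnnc1 in WT, where Tpm3 had an adjusted p of 0.00263 by edgeR. The slow troponin genes had 8 to 63 counts in an IP library, which limits their precision there.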

Other observations

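The fast pair Tnni2 and Tnnt3 lies on chromosome 7 in the same stretch as the imprinted genes H19 and Igf2, of which Igf2 is named in the title of the study. The named neighbours are Ctsd (142375911 to 142388038), Lsp1 (142460809 to 142494867), Mrpl23 (142532686 to 142540747), H19 (142575529 to 142578143) and Igf2 (142650766 to 142666816), on GRCm38. In total RNA, KO minus WT, Igf2 differed by 1.14 ± 0.48 (SE, log2; unadjusted p = 0.0401 by edgeR), H19 by 0.56 ± 0.37, Lsp1 by 0.11 ± 0.16, Ctsd by 0.09 ± 0.28 and Mrpl23 by -0.08 ± 0.34, beside 0.64 ± 0.27 for Tnnt3 and 0.51 ± 0.33 for Tnni2. None of the 7 neighbours tested, Tnni2 and Tnnt3 included, passed edgeR's quasi-likelihood test (adjusted p = 0.897 to 0.970). In IP against total RNA, Igf2 rose by 1.72 ± 0.46 in KO and by 2.82 ± 0.47 in WT, and Lsp1, a leukocyte actin-binding protein, rose by 0.91 ± 0.21 in KO and by 0.87 ± 0.21 in WT. H19 rose by 1.22 ± 0.41 in WT (adjusted p = 0.0319) and stood at 0.14 ± 0.42 in KO by the same edgeR test. Ctsd stood at 0.28 ± 0.28 in KO and rose by 1.03 ± 0.28 in WT. Of 8 neighbours tested, 2 rose and 1, Tnnt3, fell in KO, against 17.7% and 18.8% of all genes. In WT 5 rose, the pancreas marker Ins2 included, and 0 fell, against 17.6% and 19.4% of all genes. The neighbours that passed thus did not share a direction in KO, while in WT all of them rose.

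Of the family genes outside the 10, the cardiac troponin I gene Tnni3 had 6 and 13 counts in KO IP, 4, 9 and 4 in KO total libraries, 5 and 16 in WT IP and 11, 10 and 19 in WT total libraries. On those low counts it rose in IP against total RNA by 2.54 ± 0.69 (SE, log2) in KO and 2.10 ± 0.62 in WT. Tpm4, a tropomyosin of non-muscle cells, had 51.8 and 47.4 CPM in KO IP, 35.9, 57.7 and 56.4 CPM in KO total libraries, 46.6 and 47.5 CPM in WT IP, and 39.1, 37.9 and 39.4 CPM in WT total libraries. The KO IP libraries lay inside the range of KO total libraries, and both WT IP libraries lay above all 3 WT total libraries. Of 12 developmental and regenerating muscle genes, 10 were tested in total RNA and all 10 were higher in KO (median log2 0.90, against -0.01 over all genes). None passed edgeR's quasi-likelihood test. Other lists also ran in 1 direction there. All 10 smooth muscle and pericyte markers, all 6 endothelial markers and 13 of 14 fast fibre genes were higher in KO, and all 9 adipocyte markers tested were lower. In KO against WT IP, 8 of the developmental genes were tested, with 5 higher and 3 lower in KO. Actc1, the cardiac and embryonic actin, differed by 0.99 ± 0.27 and Dlk1 by 1.55 ± 0.40 in total RNA. The summed level of the developmental list was 3291 to 5185 CPM in KO total libraries and 1730.1 to 2902 CPM in WT total libraries. Tnnt2, which immature muscle also expresses, stood at 0.84 ± 0.44 in the same comparison.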
